A study of Mus musculus with 32 samples.

Results

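Interferon-stimulated genes were followed in the lungs of mice that carry or lack Bmal1, a transcription factor of the circadian clock. The members were a fixed list of 37 gene symbols. A row of the count table was taken where its Ensembl gene identifier maps to one of these symbols, and all 37 were found, each as 1 row among 41687. The animals were 12 adult C57b/6 mice aged 8 to 18 weeks and labelled female, 6 of them wild type (WT) and 6 of them Bmal1 knockouts (KO). The labels give no allele for the knockout. RNA from each lung was prepared in up to 3 ways. For RiboZero libraries ribosomal RNA was pulled down, and for PolyA libraries polyadenylated RNA was selected, both from 200 ng of RNA and with n = 6 per genotype. NoSelect libraries used neither step, started from 15 ng with 6 preparations combined per animal, and existed for mice 3 to 6 of each genotype (n = 4). All groups shared 11 cycles of PCR, and none of the labels names an infection or a treatment. Since the 3 preparations draw on the same animals, they repeat the measurement and add no mice.

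Interferons are secreted proteins that warn tissues of infection. Type I and type III interferons act through a complex that includes STAT2 and IRF9 and binds the interferon-stimulated response element (ISRE), while type II interferon acts mainly on genes that carry the gamma-activated site (GAS). The products restrict viruses and intracellular bacteria, and in the lung a low tone of these genes is present in epithelium, endothelium and resident leukocytes without infection. In bulk lung RNA, fewer cells of a type and less RNA per cell cannot be told apart.

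Promoters of 4 members are shown because these genes are among those with the largest KO against WT values described below and their windows hold the motifs. Each window runs from 250 bases before to 50 bases after the RefSeq start (GRCm38.p6), 5′ to 3′ on the gene's strand, with matches to the ISRE core or to GAS in capitals. The windows of Igtp (chr11:58199306-58199605, plus strand), Gbp7 (chr3:142530086-142530385, plus strand), Oas1a (chr5:120907476-120907775, minus strand) and Oas3 (chr5:120777610-120777909, minus strand) read as follows.
Igtp: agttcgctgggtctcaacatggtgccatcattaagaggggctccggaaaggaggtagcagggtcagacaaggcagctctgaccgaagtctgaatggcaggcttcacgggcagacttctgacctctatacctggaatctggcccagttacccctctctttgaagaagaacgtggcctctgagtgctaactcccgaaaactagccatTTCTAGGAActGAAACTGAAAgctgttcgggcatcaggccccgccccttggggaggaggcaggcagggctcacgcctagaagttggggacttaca
Gbp7: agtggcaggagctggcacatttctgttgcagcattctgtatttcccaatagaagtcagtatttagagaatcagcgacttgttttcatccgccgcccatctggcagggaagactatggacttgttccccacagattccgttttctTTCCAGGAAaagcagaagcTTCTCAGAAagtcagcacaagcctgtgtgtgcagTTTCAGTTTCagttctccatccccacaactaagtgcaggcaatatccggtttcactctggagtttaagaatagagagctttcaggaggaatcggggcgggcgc
Oas1a: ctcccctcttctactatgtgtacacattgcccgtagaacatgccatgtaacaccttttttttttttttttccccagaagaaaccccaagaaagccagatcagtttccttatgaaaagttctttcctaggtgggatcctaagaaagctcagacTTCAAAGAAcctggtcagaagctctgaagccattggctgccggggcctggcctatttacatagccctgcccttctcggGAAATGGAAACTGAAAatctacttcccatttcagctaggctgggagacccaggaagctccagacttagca
Oas3: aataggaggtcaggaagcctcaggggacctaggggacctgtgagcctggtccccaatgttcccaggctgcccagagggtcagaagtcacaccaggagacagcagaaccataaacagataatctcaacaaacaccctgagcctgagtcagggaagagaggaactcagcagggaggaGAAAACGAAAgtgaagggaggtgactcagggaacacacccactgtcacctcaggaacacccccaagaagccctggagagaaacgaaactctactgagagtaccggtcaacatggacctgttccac

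The ISRE core was searched as GAAANNGAAA and GAS as TTCNNNGAA, on both strands, and a GAS match may overlap an ISRE match. RefSeq windows were found for 27 of the 37 members, 32 windows in all, because some genes have more than 1 start. The ISRE core was present in 19 of the 32 windows (59.4%) and in 3.44% of the 32851 windows of all genes. GAS was present in 8 of the 32 (25.0%) and in 8.30% of all. CACGTG, the E-box that CLOCK and BMAL1 bind, was present in 0 of the 32 windows and in 7.15% of all, which says only that these letters are not in these windows. Igtp carries a GAS match starting 45 bases before the start and an ISRE core match 34 bases before it. Gbp7 has GAS matches 106 and 87 bases before its start and an ISRE core match, on the other strand, 53 bases before it. Oas1a holds a pair of overlapping ISRE core matches close to its start, and Oas3 holds 1 such match and no GAS. A match is a string of letters and does not show that a factor binds there.

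Total counts ran from 11638594 to 25801237 in RiboZero, from 29924325 to 41548830 in PolyA and from 74979802 to 115059756 in NoSelect libraries. In NoSelect, Lars2 and 1 row with a transcript identifier took 67.8% to 71.5% of the counts, so values in CPM, which are counts scaled to library size, are low there for all other genes. CPM values below are scaled within a preparation and are compared across preparations only where a joint scale is named. Arntl, the gene of BMAL1, lay between 18.6 and 24.6 CPM of the total in KO RiboZero libraries and between 34.2 and 42.7 in WT. In PolyA its ranges overlapped, from 26.0 to 32.5 in KO and from 31.3 to 38.0 in WT. In NoSelect it lay between 5.84 and 6.32 in KO and between 10.1 and 10.7 in WT. These are counts over the whole gene, and which part was deleted is not given in the sources used here. KO mouse 6 went against its labels. Its Xist level was 0.0722 to 0.139 CPM, against 413 to 1423 in the other 11 mice, and the sum of 4 Y-linked genes was 57.8 to 232 CPM, against at most 0.0453. Its NoSelect library is also labelled liver, while the 6 lung epithelium markers summed to 8087 CPM there and the 8 hepatocyte markers to 5 CPM, with 4 of the 8 at 0. For calls, group medians, marker sums and many of the genes described below, though not all, values without KO mouse 6 are therefore given as well.

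No interferon-stimulated gene on the list passed the test of KO against WT in any preparation. With an adjusted p below 0.05 as the call, 0 of the 37 members were called in any of the 3, where edgeR's quasi-likelihood test called 3.46%, 4.03% and 2.17% of all tested rows. All 37 passed the filter on low counts in each preparation. At an unadjusted p below 0.05 the counts were 8 members in RiboZero (5 higher and 3 lower in KO), 6 in PolyA (4 and 2) and 6 in NoSelect (4 and 2), and the shares of all rows were 16.4%, 18% and 15.7%. DESeq2 called 2 members in RiboZero, 1 in PolyA and 3 in NoSelect, and 5.16%, 7.54% and 5.14% of all rows. One fit of all 32 libraries called 3 members in PolyA, against 8.25% of all rows, and a filter of 10 counts in every library called 1 in NoSelect, against 2.79%. With WT mouse 6 left out, Irf1 was called in RiboZero and in NoSelect, against 2.62% and 1.22% of all rows. WT and KO libraries did not overlap for 0, 0 and 2 members, against 2.89%, 3.21% and 9.51% of all rows. The median log2 fold change of the members was -0.04 in RiboZero, -0.03 in PolyA and -0.004 in NoSelect, against -1.2e-05, -0.0029 and 0.00053 over all tested rows. Without KO mouse 6, 0 members were called in RiboZero and PolyA and 1 in NoSelect, Ifit2 at an adjusted p of 0.0235, against 3.56%, 3.44% and 2.73% of all rows. The members' medians were then -0.03, 0.01 and 0.02, so that in PolyA and NoSelect their sign turned.

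The 95% confidence interval of the KO against WT log2 fold change lay wholly between -1 and 1 for 35, 35 and 33 of the 37 members in RiboZero, PolyA and NoSelect. The median absolute log2 fold change was 0.19 in RiboZero, 0.18 in PolyA and 0.20 in NoSelect, against 0.09, 0.10 and 0.09 over all tested rows. The members' values were 0.16, 0.13 and 0.13 without KO mouse 6. Spread between mice was wider as well. The SD of log2 CPM within a genotype had a median over members of 0.24, 0.28 and 0.26, against 0.15, 0.17 and 0.13 over all rows. Of the 37 members, 27, 30 and 32 lay above the median of all rows. These SDs include KO mouse 6 and were not computed without it.

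**Figure D1:**
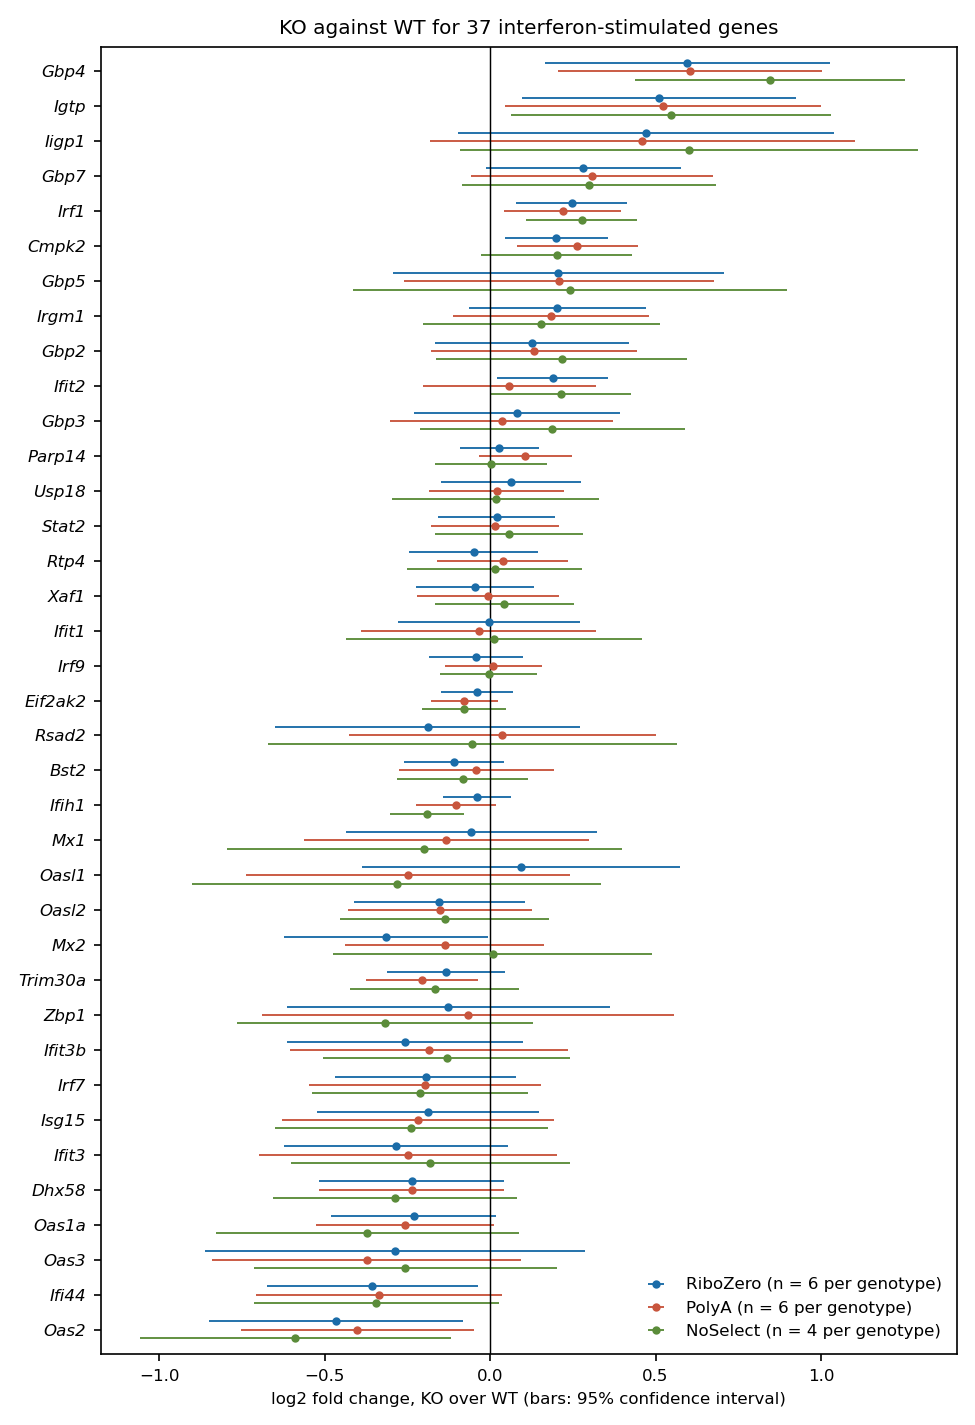
Log2 fold change of KO over WT for each of the 37 genes (rows, ordered by the mean of the 3 preparations), as points with 95% confidence intervals for RiboZero, PolyA and NoSelect. Gbp4 lies at the top with 0.60, 0.60 and 0.85 and Oas2 at the bottom with -0.47, -0.40 and -0.59, and most intervals include 0.

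Among the transcription factors, Irf1, which type II interferon induces strongly, had the lowest adjusted p of all members in RiboZero. Its RiboZero CPM ran from 74.1 to 102.1 in WT (median 85.4) and from 90.9 to 115 in KO (median 101.1). The upper WT libraries and the lower KO libraries overlapped, and the log2 fold change was 0.25 ± 0.08 (SE, adjusted p = 0.112). In PolyA it was 0.22 ± 0.08 (adjusted p = 0.168) and in NoSelect 0.28 ± 0.07 (adjusted p = 0.112). It was 0.24, 0.23 and 0.29 in RiboZero, PolyA and NoSelect with KO mouse 6 left out. Irf7, the factor that amplifies type I interferon production, lay at -0.19 in RiboZero, -0.20 in PolyA and -0.21 in NoSelect. With KO mouse 6 left out, Irf7 lay nearer to zero, at -0.11, -0.10 and -0.09. Irf9 and Stat2, the DNA-binding and activating parts of the complex on the ISRE, stayed between -0.04 and 0.06. DESeq2 called Irf1 in RiboZero (adjusted p = 0.0477) and in NoSelect (adjusted p = 0.0210).

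The guanylate-binding proteins (Gbp2, Gbp3, Gbp4, Gbp5 and Gbp7) and the immunity-related GTPases (Igtp, Iigp1 and Irgm1) are families of GTPases. Some proteins of both families, though not all, coat and disrupt vacuoles holding bacteria or parasites. None of these 8 was called, and all 8 had positive log2 fold changes in each preparation, with medians of 0.24, 0.26 and 0.27 in RiboZero, PolyA and NoSelect. The other 29 members had medians of -0.11, -0.10 and -0.13, with 7, 9 and 10 of them positive. Without KO mouse 6 the 8 GTPases were again all positive, with medians of 0.31, 0.32 and 0.40, and the other 29 had medians of -0.06, -0.07 and -0.006. In KO mouse 3 all 8 lay above the KO mean, by medians of 0.46, 0.44 and 0.47 log2 units, against 0.21, 0.21 and 0.19 for the other 29. All 8 were also above the WT mean in WT mouse 6 (0.20, 0.30 and 0.26) and WT mouse 1 (0.40 in RiboZero and 0.32 in PolyA). Medians of the 8 without KO mouse 3 are not given. The split into GTPases and others was made after the values were known, carries no test, and rests on the same mice in each preparation.

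Gbp4 had the largest mean absolute value of the members. Gbp4 (chromosome 5, 105115767 to 105139586, minus strand, protein coding) shares 14.3% of its 31-base words with other genes, the most with Gbp6 (6.91%), so its counts are partly uncertain. In RiboZero it ran from 45.1 to 92.3 CPM in WT (median 54.7) and from 73.9 to 142 in KO (median 80.8). WT mouse 1 alone reached into the KO range there, and KO mouse 3 stood far above the other KO mice. In NoSelect the WT libraries of mice 3 to 6 held 12.8, 16.2, 12.6 and 17.1 CPM, and those of KO held 36.7, 23.3, 22.2 and 23.1. These groups did not overlap. The log2 fold changes were 0.60 ± 0.20 (adjusted p = 0.136) in RiboZero, 0.60 ± 0.18 (adjusted p = 0.0975) in PolyA and 0.85 ± 0.18 (adjusted p = 0.0520) in NoSelect. Without WT mouse 1, Gbp4 was called in RiboZero (0.77, adjusted p = 0.0326) and in PolyA (0.75, adjusted p = 0.0302), against 3.31% and 3.76% of all rows. Without KO mouse 3 its values were lower at 0.42, 0.45 and 0.64, and the NoSelect value was called (adjusted p = 0.0398), as were 1.75% of all rows. Without KO mouse 6 they were 0.61, 0.64 and 0.90, with 0 calls. DESeq2 called Gbp4 in all 3 preparations, at adjusted p of 0.0455, 0.0203 and 8.4e-05.

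Gbp7 lies on chromosome 3 (142530342 to 142550149, plus strand, protein coding), near Gbp2, Gbp3 and Gbp5, and shares 14.7% of its words with other genes. Its RiboZero CPM ran from 67.7 to 105 in WT (median 83.7) and from 90.4 to 141 in KO (median 96.9). In NoSelect, WT mice 3 to 6 held 18.4, 24.3, 19.4 and 23.5 CPM, and KO mice held 36.4, 23.6, 22.9 and 22.4. Only KO mouse 3 lay above the WT range in NoSelect. The log2 fold changes were 0.28 ± 0.14, 0.31 ± 0.17 and 0.30 ± 0.17 in the order RiboZero, PolyA, NoSelect, with adjusted p of 0.328, 0.369 and 0.452. Leaving out KO mouse 3 brought the NoSelect value to 0.10. The values were 0.30, 0.30 and 0.37 when KO mouse 6 was left out.

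Igtp, whose promoter is printed above, encodes the GTPase also known as IRGM3, and lies on chromosome 11 (58199556 to 58207591, plus strand, protein coding). It shares 15.9% of its words with other genes, mostly Irgm2. Its RiboZero CPM ran from 19.2 to 39.0 in WT (median 28.1) and from 28.8 to 54.8 in KO (median 41.8), and in PolyA from 29.7 to 70.0 in WT (median 40.2) and from 44.4 to 87.8 in KO (median 62.0). NoSelect CPM of mice 3 to 6 was 5.99, 6.79, 6.11 and 9.45 in WT and 12.8, 12.6, 7.34 and 8.73 in KO. KO mice 3 and 4 were above every WT mouse in NoSelect, and KO mice 5 and 6 were not. Fitted KO against WT values were 0.51 ± 0.19, 0.52 ± 0.22 and 0.55 ± 0.21, with adjusted p of 0.192, 0.232 and 0.259, and 0.57, 0.58 and 0.62 without KO mouse 6.

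Iigp1 encodes a GTPase that accumulates on parasite vacuoles. Its RiboZero CPM ran from 26.4 to 63.9 in WT (median 36.5) and from 33.5 to 89.1 in KO (median 53.0). In NoSelect, WT mice 3 to 6 held 8.72, 9.27, 7.56 and 12.1 CPM and KO mice 18.7, 20.0, 11.2 and 7.26. KO mouse 6 was the lowest of all 8 NoSelect libraries and KO mouse 4 the highest. On the log2 scale KO against WT was 0.47 ± 0.26, 0.46 ± 0.30 and 0.60 ± 0.30 (adjusted p = 0.411, 0.447 and 0.391), and 0.59, 0.59 and 0.82 without KO mouse 6. Gbp2, Gbp3, Gbp5 and Irgm1 had values between 0.04 and 0.24, none with an unadjusted p below 0.05. Their values lay between 0.11 and 0.43 without KO mouse 6.

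The 2′-5′ oligoadenylate synthetases sense double-stranded RNA and make the messenger that activates RNase L, and the OAS-like proteins Oasl1 and Oasl2 are their relatives. None of the 5 was called, and their log2 fold changes lay between -0.59 and 0.09, with Oasl1 in RiboZero the 1 positive value. Oas2 (chromosome 5, 120730333 to 120749853, minus strand, protein coding) ran from 7.55 to 16.9 CPM in WT RiboZero libraries (median 11.4) and from 7.17 to 11.3 in KO (median 7.58). NoSelect CPM of mice 3 to 6 was 3.29, 4.33, 5.96 and 4.30 in WT and 4.05, 2.73, 2.51 and 2.62 in KO. KO mouse 3 was the KO library that overlapped WT in NoSelect. Its log2 fold changes were -0.47 ± 0.18 (adjusted p = 0.199), -0.40 ± 0.16 (adjusted p = 0.211) and -0.59 ± 0.21 (adjusted p = 0.216), and -0.44, -0.36 and -0.53 without KO mouse 6.

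Oas1a and Oas3 sit beside Oas2 on chromosome 5. Oas1a shares 68.8% of its words with other genes, mostly Oas1g, so the split of counts between these near copies is uncertain. RiboZero CPM of Oas1a ran from 7.30 to 9.93 in WT (median 9.15) and from 6.17 to 9.23 in KO (median 7.44). In NoSelect it was 1.82, 2.51, 2.52 and 2.51 in WT mice 3 to 6 and 2.57, 1.77, 1.4 and 1.50 in KO. KO mouse 3 is the one library that crosses the groups, and WT mouse 3 lies just above the other KO mice. The log2 fold changes of Oas1a were -0.23 ± 0.12, -0.26 ± 0.12 and -0.37 ± 0.20, with adjusted p of 0.347, 0.303 and 0.430. Without KO mouse 6 they were -0.18, -0.19 and -0.29. Oas3 was the lowest of the 37 per kilobase in each preparation, and its RiboZero CPM ran from 2.05 to 5.18 in WT (median 3.65) and from 1.63 to 4.20 in KO (median 2.90). Its NoSelect CPM was 0.923, 1.05, 1.17 and 0.969 in WT mice 3 to 6 and 0.998, 1.13, 0.702 and 0.625 in KO. KO mice 5 and 6 were below all WT mice there and KO mice 3 and 4 were among them. The log2 fold changes of Oas3 were -0.29 ± 0.27, -0.37 ± 0.22 and -0.26 ± 0.20, with adjusted p of 0.656, 0.394 and 0.601. They shrank to -0.16, -0.27 and -0.12 without KO mouse 6.

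Of the sensors, Ifih1 (MDA5, which binds long double-stranded RNA) had a log2 fold change of -0.19 ± 0.05 in NoSelect (adjusted p = 0.0983). Its NoSelect CPM was 14.9, 15.8, 16.0 and 14.7 in WT mice 3 to 6 and 13.5, 13.8, 14 and 12.4 in KO. These groups did not overlap, whereas the RiboZero ranges, 52.3 to 61.1 in WT and 53.0 to 59.2 in KO, did. DESeq2 called Ifih1 in NoSelect (adjusted p = 0.0328), and without KO mouse 6 the NoSelect value was -0.16 (adjusted p = 0.109). Dhx58 (LGP2, which modulates MDA5) had values of -0.24, -0.24 and -0.29, and -0.19, -0.16 and -0.13 without KO mouse 6. Eif2ak2 (PKR, which stops translation) had -0.04, -0.08 and -0.08, and -0.06, -0.07 and -0.04 without KO mouse 6. Zbp1 (a sensor of Z-form nucleic acid) had -0.13, -0.07 and -0.32, and -0.06, 0.06 and -0.20 without KO mouse 6.

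Of the IFIT proteins, IFIT1 binds foreign 5′ ends of RNA. Ifit1 lay at -0.002, -0.03 and 0.01, and Ifit2 at 0.19, 0.06 and 0.21. Leaving out KO mouse 6 brought Ifit1 to 0.03, 0.03 and 0.12 and Ifit2 to 0.23, 0.14 and 0.31. Ifit3 and Ifit3b share 61.8% and 55.2% of their words, mostly with each other, so their counts cannot be cleanly split. Their log2 fold changes lay between -0.28 and -0.13. These shrank to between -0.21 and 0.005 without KO mouse 6, with -0.002 for Ifit3 and 0.005 for Ifit3b in NoSelect. Mx1 and Mx2 belong to a GTPase family whose active forms block viral replication, and Mx2 is annotated as a polymorphic pseudogene. The values of Mx1 and Mx2 lay between -0.32 and 0.01, and between -0.24 and 0.15 without KO mouse 6. Isg15, a ubiquitin-like modifier, had -0.19, -0.22 and -0.24, and Usp18, the protease that removes it and damps the receptor, 0.06, 0.02 and 0.02. With KO mouse 6 left out, Isg15 had -0.14, -0.11 and -0.08 and Usp18 0.14, 0.09 and 0.13. None of these 8 genes was called in the main tests, and Ifit2 was called in NoSelect without KO mouse 6 (adjusted p = 0.0235).

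Of the remaining 8 effectors, Ifi44 had the largest mean absolute value. Its RiboZero CPM ran from 8.75 to 12.7 in WT (median 11.3) and from 6.43 to 11.9 in KO (median 8.72). In NoSelect it was 2.64, 3.24, 3.66 and 3.01 in WT mice 3 to 6 and 3.19, 2.61, 2.06 and 2.04 in KO. Only KO mouse 3 was within the WT range there. Its log2 fold changes were -0.36 ± 0.15, -0.34 ± 0.17 and -0.34 ± 0.16, with adjusted p of 0.244, 0.331 and 0.358, and -0.28, -0.25 and -0.26 without KO mouse 6. Cmpk2, a mitochondrial nucleotide kinase beside Rsad2, had values of 0.20, 0.26 and 0.20, and it was called in RiboZero without WT mouse 1 (adjusted p = 0.0241). Bst2 (tetherin, which holds budding virus at the cell surface), Parp14, Rsad2 (viperin), Rtp4, Trim30a and Xaf1 had values between -0.21 and 0.11.

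**Figure D2:**
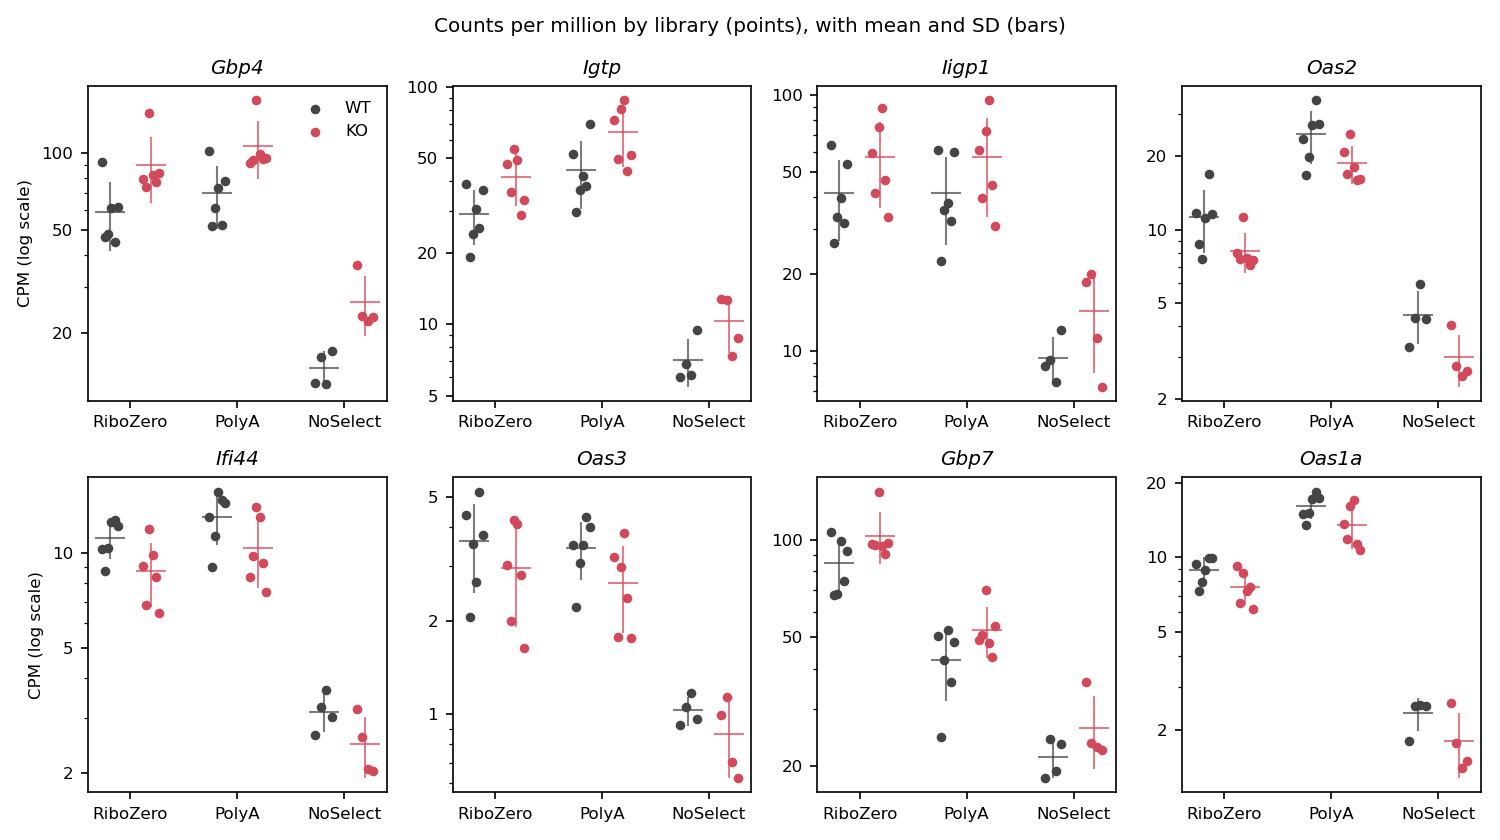
CPM on a log scale in each library for the 8 genes with the largest mean absolute KO against WT log2 fold change, WT in grey and KO in red, with the mean and SD as a cross. In Gbp4 the NoSelect groups are apart, at 12.6 to 17.1 CPM in WT and 22.2 to 36.7 in KO, and in the other panels WT and KO points overlap in each preparation.

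Mice of one genotype differed in a shared way across the genes, and in KO the same animals stood out in each preparation. There, mouse 3 was the highest of its genotype for 21 of the 37 genes in RiboZero, 14 in PolyA and 23 in NoSelect, and mouse 4 for 14, 22 and 12. KO mouse 6 was the lowest for 20, 24 and 27. Among WT, mouse 2 was the lowest for 28 genes in RiboZero and 30 in PolyA and has no NoSelect library. In NoSelect, WT mouse 3 was the lowest for 23 genes, against 4 in RiboZero and 3 in PolyA. The same KO mouse was highest in both RiboZero and PolyA for 28 genes, and the same WT mouse for 24. In all 3 preparations the highest mouse was the same for 22 genes in KO and 11 in WT, and the lowest for 19 and 3. Mice 1 and 2 have no NoSelect library, so a gene on which one of them stood out could not agree in all 3. WT mouse 1 was the highest for 16 genes in RiboZero and 11 in PolyA, and WT mouse 2 was mostly the lowest. The KO and WT counts over all 3 preparations are therefore not comparable. Median deviations from the mean of the genotype were 0.28, 0.25 and 0.22 log2 units for KO mouse 3, 0.20, 0.31 and 0.16 for KO mouse 4, and -0.23, -0.31 and -0.28 for KO mouse 6. Across KO libraries the highest mouse exceeded the lowest by a median of 1.61-fold over members in RiboZero, 1.71-fold in PolyA and 1.63-fold in NoSelect. In WT it did so by 1.45-fold, 1.46-fold and 1.24-fold. KO mouse 6 is the lowest KO library for 20, 24 and 27 of the genes in these folds, which were not computed without it. KO mouse 6 is also the mouse whose sex-linked counts went against its label, and the part of sex in its values was not tested.

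**Figure D3:**
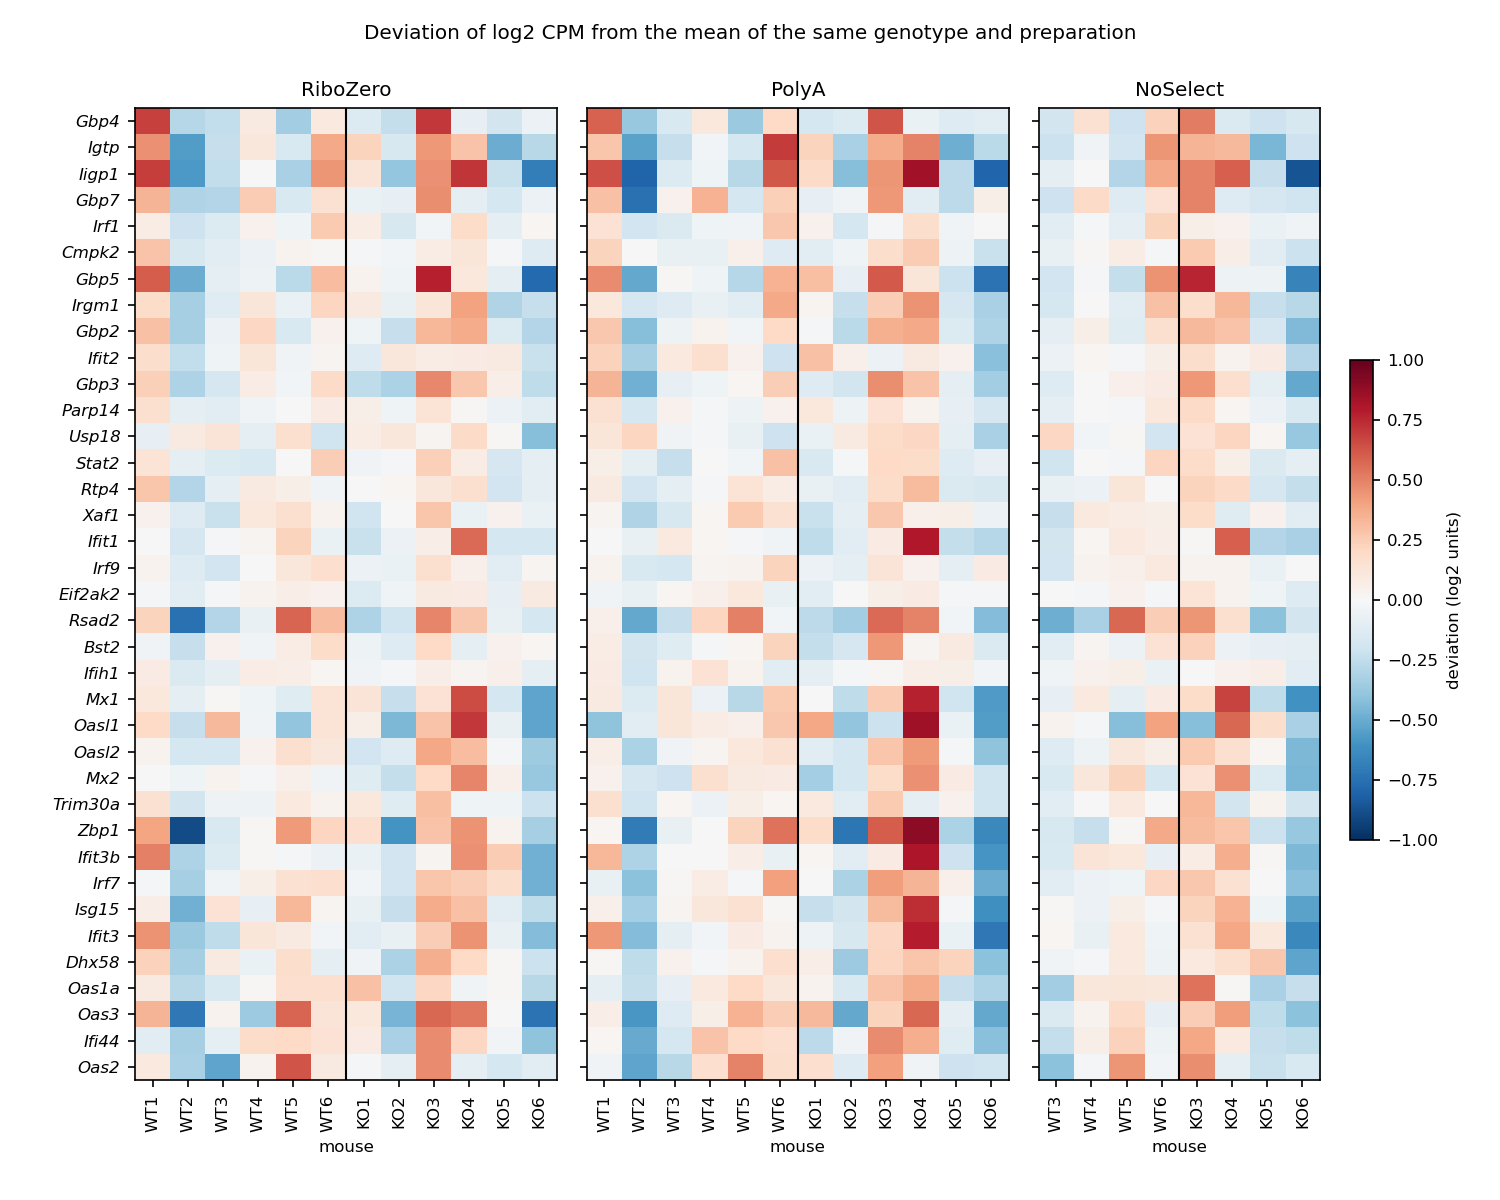
Deviation of log2 CPM from the mean of the same genotype and preparation, for 37 genes (rows) and each mouse (columns), red above and blue below. Columns KO3 and KO4 are mostly red and KO6 and WT2 mostly blue, with median deviations of 0.28 for KO3 and -0.29 for WT2 in RiboZero.

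Leukocyte markers also varied between these libraries. The 5 neutrophil markers summed to 27.3 to 46.5 CPM of the total in WT RiboZero libraries and to 23.7 to 104 in KO, where mice 3, 4 and 6 held 54.6, 104 and 23.7. All 5 had positive KO against WT values in each preparation, with median log2 fold changes of 1.17 in RiboZero, 1.27 in PolyA and 1.27 in NoSelect. Of the 5, 0, 1 and 0 were called, and 4, 4 and 3 had an unadjusted p below 0.05, all higher in KO. Over all rows 3.46%, 4.03% and 2.17% were called, and 16.4%, 18% and 15.7% had an unadjusted p below 0.05. The KO range in RiboZero was 37.5 to 104 CPM without KO mouse 6. The 5 markers of plasmacytoid dendritic cells, the main makers of type I interferon, summed to 11.5 to 19.9 CPM in WT and 6.19 to 24.9 in KO RiboZero libraries. In NoSelect their sums did not overlap, at 3.50 to 5.49 in WT and 2.06 to 3.33 in KO. Their tested members had negative KO against WT values for 3 of 4 in RiboZero, 5 of 5 in PolyA and 4 of 4 in NoSelect, with medians of -0.18, -0.50 and -0.58, and 0 were called (1, 2 and 1 at an unadjusted p below 0.05). The 9 markers of T and NK cells, the usual source of type II interferon, summed to 32 to 66.5 CPM in WT and 22.4 to 65.5 in KO RiboZero libraries. Of these, 8, 8 and 9 had negative values, with medians of -0.27, -0.35 and -0.49, and 0 were called (1, 1 and 2 at an unadjusted p below 0.05). For both lists the KO ranges given were the same without KO mouse 6. Of the 4 B cell markers, 4, 4 and 1 had positive values in RiboZero, PolyA and NoSelect, with 0 calls. The 6 alveolar macrophage markers had 5, 6 and 5 negative values, with 1 called lower in PolyA. Of 5 monocyte markers 4 were negative in each preparation, with 0 calls. Outside the leukocytes, 4, 5 and 5 of the 5 endothelium markers were positive, with 0 calls. Of the 6 lung epithelium markers 3 were positive and 3 negative in each preparation. Among these 6, 1 was called higher and 1 lower in RiboZero, and 1 lower in PolyA and in NoSelect. The part of these cells in the members' values was not tested.

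The listed interferon genes, which are not all those of the mouse, were close to undetected. The 14 ligand genes held 1 to 36 counts in sum per library, and 0 of the 14 passed the filter on low counts in the main tests. Without KO mouse 6, 1 of them passed it in PolyA, with a log2 fold change of 0.64, and was not called. All 11 receptor and signalling genes were tested and 0 were called in any preparation. Of these, Stat3 had log2 fold changes of -0.18, -0.19 and -0.21 (adjusted p = 0.0737, 0.132 and 0.0941). Without KO mouse 6 it was called in each of the 3, at -0.21, -0.23 and -0.26 (adjusted p = 0.0252, 0.0439 and 0.0259), and it was called in RiboZero without WT mouse 1 (0.0241) and by DESeq2 in RiboZero and NoSelect (0.0228 and 0.0128). Log2 fold changes of Jak1, the kinase shared by the receptors, were -0.05, -0.05 and -0.08. Of the sensors and adaptors that induce interferon, 16 of 19 symbols were rows of the table and 0 were called. Ddx58 (RIG-I) had values of -0.11, -0.13 and -0.09, and Trim25, its ubiquitin ligase, -0.04, -0.005 and -0.09. Among the 10 negative regulators only Ptpn2, a phosphatase of JAK and STAT proteins, was called, in NoSelect at -0.30 ± 0.06 (adjusted p = 0.0371). In RiboZero and PolyA it was -0.29 and -0.13 and was not called. Socs3, an inhibitor of JAK kinases, was called lower in RiboZero without KO mouse 6.

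A further list of interferon-stimulated genes outside the 37 held 52 tested genes. Called genes numbered 0 higher and 2 lower in KO for RiboZero, 1 and 3 for PolyA, and 0 and 3 for NoSelect. These are 3.85%, 7.69% and 5.77% of the list, where 3.46%, 4.03% and 2.17% of all rows were called. The median log2 fold change of the list was -0.04 in each preparation, and -0.007, 0.005 and -0.006 without KO mouse 6. Ifi205, an AIM2-like protein of the HIN200 family, was called in all 3. It shares 22.1% of its 31-base words with other genes, mostly Ifi211 (20.5%), so its counts are partly uncertain. Its RiboZero CPM ran from 7.70 to 11.5 in WT (median 9.56) and from 5.14 to 7.35 in KO (median 5.92), and its groups did not overlap in any preparation. It fell by 0.64 ± 0.12, 0.70 ± 0.12 and 0.80 ± 0.11 on the log2 scale (adjusted p = 0.00836, 0.00711 and 0.00938). Ifi27l2a, a small mitochondrial membrane protein, ran from 16.4 to 24.4 CPM in WT RiboZero libraries (median 17.8) and from 9.34 to 14 in KO (median 12.9), again without overlap. It fell by 0.65 ± 0.13, 0.69 ± 0.14 and 0.68 ± 0.11 (adjusted p = 0.0138, 0.0150 and 0.0235). Ifi207, in the same family as Ifi205 and with 14.8% of its words shared, fell in PolyA by 0.59 ± 0.13 (adjusted p = 0.0271), and was -0.44 and -0.47 in RiboZero and NoSelect without a call. Tor3a was called in PolyA at 0.22 ± 0.05 (adjusted p = 0.0349), and Ifitm3, which blocks viral entry and shares 20.5% of its words, in NoSelect at -0.20 ± 0.04 (adjusted p = 0.0336). The Ifi205 calls held with each mouse left out in turn. Those of Ifi27l2a held in RiboZero and PolyA and ended in NoSelect without WT mouse 4, KO mouse 4 or KO mouse 5 (adjusted p = 0.0516, 0.0708 and 0.0651). The Ifi207 call ended in 6 of 12 such fits, without KO mice 2, 5 or 6 or WT mice 4, 5 or 6 (adjusted p = 0.0558 to 0.0723). That of Tor3a ended in 9 of 12, all but those without WT mice 1 or 2 or KO mouse 6 (adjusted p = 0.0549 to 0.0748). The NoSelect calls of Ifitm3 and Ptpn2 ended in 7 of 8, all but that without KO mouse 6 (adjusted p = 0.0531 to 0.111 and 0.0732 to 0.118). Calls were also gained. In RiboZero, Ifi207 was called by DESeq2 and without KO mouse 6 (adjusted p = 0.0159 and 0.0349), Ifitm3 by DESeq2, without WT mouse 2 and with at least 10 counts in every library (0.0145, 0.0142 and 0.0484), and Tor3a by DESeq2, in the fit of all libraries and with at least 10 counts in every library (0.0130, 0.0078 and 0.0499). DESeq2 called Tor3a in NoSelect as well (0.0496), and Trim21 was called there without KO mouse 6.

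Differences of the KO effect between preparations were tested as an interaction. For PolyA against RiboZero, PolyA against NoSelect and RiboZero against NoSelect, 0 of the 37 members were called, where 0%, 0% and 0% of all rows were. At an unadjusted p below 0.05 the counts were 0, 0 and 1 members, against 1.82%, 2.24% and 1.39% of all rows, and DESeq2 called 0 members in each and 0.042%, 0.0526% and 0.0313% of all rows. The differences lay between -0.33 and 0.37 log2 units, with median standard errors of 0.21, 0.25 and 0.23. Most KO against WT values of the members were no larger than these errors. These fits treated libraries of one mouse as separate, so the errors include differences between mice. NoSelect had only mice 3 to 6, so in the comparisons with it the animals were not the same on each side. With the mouse as a block, 0 members were called in each comparison, and 1, 0 and 1 of all rows.

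Preparation moved 7 members past the test, in both directions, a share of the list no larger than that of all rows. Between PolyA and RiboZero, 7 of the 37 members passed an adjusted p below 0.05 together with a log2 fold change of 1 or more in size, against 23.6% of all rows. On a scale joint to both preparations, Isg15 ran from 3.37 to 6.00 CPM in the 12 RiboZero libraries and from 6.80 to 17.2 in PolyA, and Bst2 from 29.8 to 40.2 and from 70.2 to 117. Both were higher in PolyA in every library, by 1.35 ± 0.13 and 1.34 ± 0.07 on the log2 scale (adjusted p = 4.57e-10 and 3.45e-15). Ifih1 ran from 58.7 to 68.9 in RiboZero and from 23.0 to 30.2 in PolyA, and Gbp7 from 76.0 to 159 and from 21.2 to 63.7. Both fell in PolyA, by 1.29 ± 0.04 and 1.31 ± 0.12. Eif2ak2, Ifit2 and Parp14 fell by 1.16 ± 0.04, 1.1 ± 0.07 and 1.06 ± 0.04. The 2 genes called higher in PolyA are the shortest of the 37, with combined exon lengths of 756 bases (Isg15) and 903 bases (Bst2). Parp14 and Ifih1 are the longest, with 9306 and 8165, while Ifit2, Eif2ak2 and Gbp7 have 3927, 5113 and 5614. On the joint scale Usp18, with 2790 bases, ran from 12.6 to 19.3 CPM in RiboZero and from 24.7 to 35.2 in PolyA. Oasl2, with 6374 bases, ran from 24.9 to 41.7 in RiboZero and from 38.9 to 68.0 in PolyA. Over the 37 genes the Pearson correlation of the log2 fold change with log2 exon length was -0.61 and Spearman's rho -0.51. This describes genes that share their libraries and is not a test. RiboZero and NoSelect differed for 0 members at this rule, against 4.3% of all rows, and DESeq2 called 0. Without the limit on size 9 members passed an adjusted p below 0.05, against 45.9% of all rows, with all values between -0.45 and 0.28. Libraries of one mouse were not paired in these fits either. Mice 1 and 2 of each genotype were in RiboZero but not in NoSelect, so the animals compared there were not the same. With the mouse as a block and the limit on size, 7 members were called between PolyA and RiboZero, against 4333 of 18164 rows. Between RiboZero and NoSelect 0 were, against 802 of 17502 rows.

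**Figure D4:**
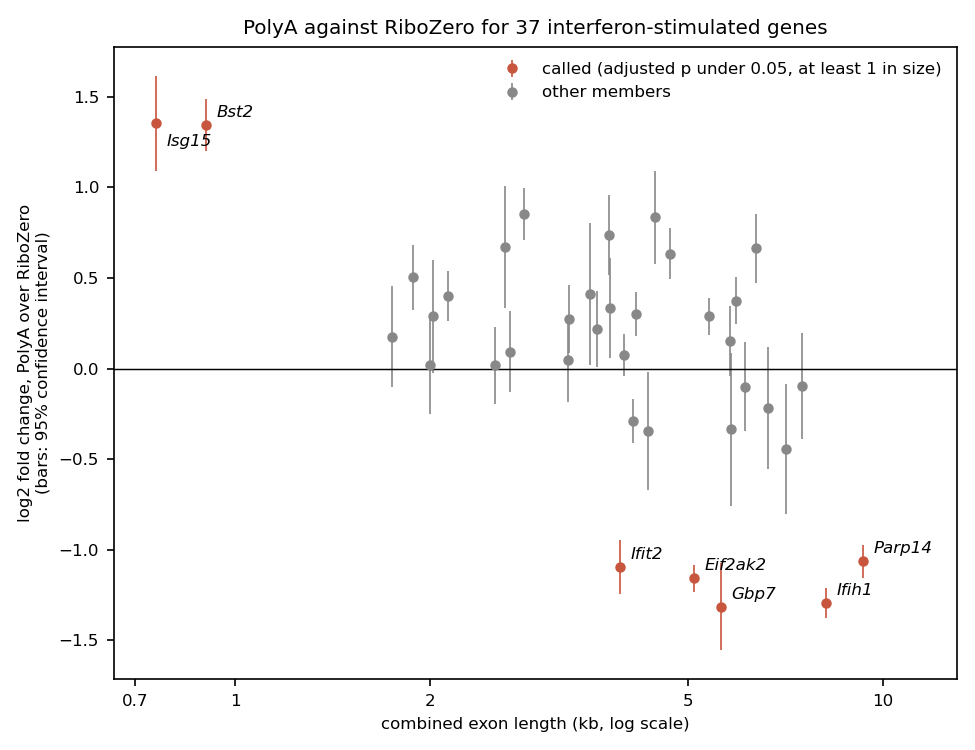
Log2 fold change of PolyA over RiboZero (points, with 95% confidence intervals) against combined exon length on a log scale, for the 37 genes, with the 7 called genes in red. Isg15 and Bst2 lie at the upper left at 1.35 and 1.34, and Gbp7, Ifih1, Eif2ak2, Ifit2 and Parp14 lie below -1.

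Per kilobase of exon, CPM in RiboZero ranked Bst2 first, with a median of 33.8 over 12 libraries (29.8 to 39.8), then Gbp2 at 24.0 (18.8 to 33.5) and Irf1 at 23.4 (18.6 to 28.9). The ranges of Gbp2 and Irf1 overlap, so their order is not resolved. At the other end stood Oasl1 at 0.749 (0.509 to 1.25) and Oas3 at 0.462 (0.231 to 0.732). In PolyA the first was again Bst2, at 108 (89.7 to 143), followed by Irf1 at 32.4 and Gbp2 at 30.5, and Oas3 was last at 0.442. In NoSelect, where the scale is lower, Bst2 led at 9.07, followed by Irf1 at 6.06 and Gbp2 at 5.72. Mx2, with 0.847 in RiboZero, is annotated as a polymorphic pseudogene in GENCODE M21.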

How the data were processed

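Gene-level RNA sequencing of lung was analysed in 32 libraries of 12 mice in 6 groups (genotype by preparation). The values are estimated counts that the authors deposited for each gene, in a single table. Salmon 1.4.0, UMI-tools 1.1.1 and GRCm38 are named in the submitters' processing notes, with no role given. Of the deposited estimated counts, 12.8% were not whole, and they were rounded. Symbols were found for 37649 of 41687 rows, and 0 columns were left unused. Total counts ran from 11638594 to 115059756. Replicate pairs differed by more than sampling noise (chi-square per degree of freedom from 6.67 to 65.9 over 72 pairs). Numbered samples of a group were taken as separate animals, as the labels number them.

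KO was tested against WT within each preparation with edgeR 4.0.16 in R 4.3.3 (TMM factors, the filterByExpr filter, then glmQLFit followed by glmQLFTest) and p-values were adjusted by Benjamini-Hochberg over all tested rows, with a threshold of 0.05. Preparations were compared with genotype as a covariate and a minimum absolute log2 fold change of 1, and differences of the KO effect as an interaction. Standard errors come from the test's F statistic. CPM are on the TMM scale of tested rows unless called CPM of the total. The alternatives were DESeq2 1.42.0, other size factors and filters, a replicate block, 1 fit of all libraries, mice 3 to 6 alone, and leaving out each mouse. The fits were tested on simulated counts. Exon lengths, positions and shared words of 31 bases come from GENCODE M21 (GRCm38) and promoters from RefSeq GRCm38.p6.

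The members, the lists and the tests were chosen with earlier results of these data known. Named members are those called, or else the 8 with the largest mean absolute log2 fold change over the 3 preparations. Between preparations they are the 3 highest and 3 lowest, and from the other lists the called genes or else the 2 most abundant. Irf1, Cmpk2, Ifih1, Ifit2, Socs3 and Trim21 are named or described more fully because an alternative called them, which was seen afterwards, and the same holds for the 7 genes called between preparations. Libraries of one mouse come from the same animal across preparations. Their deviations from the group means correlated at 0.423 to 0.797 over 13261 rows in 28 pairs. The main tests across preparations did not use this pairing, and the mouse as a block was an alternative.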

Additional observations from a re-analysis of the deposited data

Results flagged for a closer look

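For the 8 named genes the highest and lowest library of each genotype and preparation was compared with its neighbour by Dixon's test at the 95% level. Of 48 groups 9 held such a library. The 8 genes were picked by values from these same libraries, and the CPM were not log transformed. No chance rate can therefore be set against this share, and the share over other genes was not computed. KO mouse 3 was the library in 7 of the 9. Its Gbp4 level was 142.4 CPM in RiboZero (next highest KO library 83.7), 160.1 in PolyA (99.2) and 36.7 in NoSelect (23.3). Gbp7 in the same mouse stood at 141 CPM in RiboZero (98.0) and 36.4 in NoSelect (23.6), and Oas2 at 11.3 in RiboZero (8.04) and 4.05 in NoSelect (2.73). In WT mouse 1, Gbp4 reached 92.3 CPM in RiboZero, with the next WT library at 61.4. Oas1a in the NoSelect library of WT mouse 3 was low, at 1.82 CPM, with the next at 2.51. Groups share mice across preparations and genes share mice, so these are not 9 separate events. Whether any technical or biological feature of KO mouse 3 bears on these values was not tested.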

How the results depend on the processing

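Members called for KO against WT numbered 0 in each preparation. DESeq2 called 2 in RiboZero (Irf1 and Gbp4), 1 in PolyA (Gbp4) and 3 in NoSelect (Ifih1, Irf1 and Gbp4), where it called 5.16%, 7.54% and 5.14% of all rows. A single fit of all 32 libraries called 3 in PolyA (Cmpk2, Irf1 and Gbp4; 8.25% of all rows), and a filter of 10 counts in every library called 1 in NoSelect (Gbp4; 2.79%). Leaving out 1 mouse at a time gave 0 to 2 calls in RiboZero (2 without WT mouse 1, Cmpk2 and Gbp4, and 1 without WT mouse 6, Irf1, with 3.31% and 2.62% of all rows), 0 to 1 in PolyA (without WT mouse 1, Gbp4, with 3.76%) and 0 to 1 in NoSelect (Gbp4 without KO mouse 3, Irf1 without WT mouse 6 and Ifit2 without KO mouse 6, with 1.75%, 1.22% and 2.73%). The cause of these differences was not tested. Other size factors, no filter on low counts and mice 3 to 6 alone, where each applies, called 0. With a replicate block, 0 members were called in each preparation. A number shared by a WT and a KO mouse does not join them, and deviations of such mice correlated at -0.168 to 0.277. Over all rows the block moved the calls from 579 to 372 in RiboZero, from 694 to 617 in PolyA and from 372 to 103 in NoSelect. For differences of the KO effect 0 members, and between PolyA and RiboZero 7, were called under every alternative run, the block by mouse included.

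With the replicate block the NoSelect calls of Ifi27l2a, Ptpn2 and Ifitm3 and the PolyA call of Ifi207 were lost (adjusted p = 0.130, 0.156, 0.154 and 0.0661). With no filter on low counts those of Ptpn2 and Ifitm3 were lost (0.0574 and 0.0521), and in the fit of all libraries too (0.180 and 0.185). With mice 3 to 6 alone Ifi27l2a lost its RiboZero and PolyA calls (0.0927 and 0.0509), and Ifi207 and Tor3a their PolyA calls (0.103 and 0.0638). The named members kept their direction in every alternative. Of the other named genes, Trim25 in PolyA lay near 0 and changed sign, at 0.0045 with no filter, 0.028 in the fit of all libraries, and -0.038 to 0.033 with 1 mouse left out. With 4 to 6 mice per group the standard error of a member's log2 fold change had a median of 0.13 to 0.16, which limits what these data can resolve.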
